A study of Solanum dulcamara with 18 samples.

Results

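The 100 contigs with the highest mean abundance in leaves of Solanum dulcamara were taken from 24158 assembled contigs, of which they are 0.414%. CPM values (the reads of a contig scaled to a library of 1000000 reads) were averaged over all 18 libraries, and the 100 highest means were kept. The contigs were therefore chosen on the values described here. Their levels, ranks and shares of reads are given as a description, with no test. The study, on bittersweet nightshade, a wild perennial relative of tomato and potato, asked how water stress affects the leaf's transcript response to a herbivore. Greenhouse plants were kept under control watering, drought or flooding for 5 days and the water treatment went on through 2 more days, in which caterpillars fed on the plants for 48 h (infested) or were absent (uninfested). The caterpillars were beet armyworms, larvae of Spodoptera exigua, which chew the leaves of many plant species. Each of the 6 groups (uninfested control, infested control, uninfested drought, infested drought, uninfested flooding and infested flooding) had 3 leaf RNA-seq libraries from separate biological replicates. The sources used here do not give the plants' genotype or age, or how many made up a replicate.

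In leaves, a small number of genes usually makes up a large part of the messenger RNA. Many of them encode the light-harvesting and carbon-fixing apparatus of the chloroplast, whose transcripts commonly fall when a leaf is wounded, dried or submerged. In plants of the nightshade family, chewing insects set off jasmonate signalling, which raises transcripts of defence proteins such as inhibitors of the insect's digestive proteases. Flooding limits the oxygen supply to submerged organs, and drought acts on leaves largely through abscisic acid. The deposited tables gave contig IDs and lengths without gene names, and 0 of the 24158 IDs were found in the reference gene table. No function is therefore assigned to any of the 100 contigs, and which of them belong to the gene classes just named was not tested.

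The 100 contigs held 20.1% of a library's reads on average (SD 2.38, n = 18), from 15.3% in the lowest library to 24.8% in the highest. The reads were spread unevenly among them: 25 of the 100 held 50% of their reads, and the 10 most abundant alone held between 4.32% and 7.85% of a library. By comparison, the contigs after them down to rank 1000 held 28.2%, and 1108 contigs were needed for 50% of all reads. Members ranged from 566 to 8392 bases in length, with a median of 1587 bases against 1054 for all contigs. A long transcript gives more reads than a short one at the same number of molecules. When counts were divided by length before ranking, 76 of the 100 stayed among the first 100, and the lowest-ranked of the others stood at place 303. Each of the 100 came from a different assembly component, and 96 were the only contig of theirs. For the other 4, reads could have been divided between related contigs. Depth was not limiting for any member, since the lowest count in any library was 329 reads. All 100 passed the filter on low counts. Library totals ran from 6717218 to 16056241 reads, and libraries within each group differed beyond counting noise (chi-square divided by its degrees of freedom was 7.74 to 45.7).

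The limit at rank 100 cut through a continuous series of levels. Just inside it were comp1469_c0_seq1 with a mean of 908 CPM, comp285_c0_seq1 with 898 CPM and comp1119_c0_seq1 with 895 CPM. Just outside were comp502_c0_seq1 with 892 CPM, comp491_c0_seq1 with 878 CPM and comp21413_c0_seq1, also with 878 CPM.

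The most abundant contig was comp7_c0_seq1, 930 bases long, which held the first rank in every group and also came first when counts were divided by length. Its level was 25507, 23619 and 21356 CPM in uninfested control libraries and 15599, 12254 and 19862 CPM in infested control libraries. It was 15574, 14557 and 12978 CPM in uninfested drought and 9549.7, 14243 and 11811 CPM in infested drought. It was 14478, 21565 and 11665 CPM in uninfested flooding and 11157, 5574 and 10091 CPM in infested flooding. The uninfested control libraries were high and the infested flooding libraries low, and these 2 groups did not overlap. The means of the other groups lay in between. Of the 7 comparisons between 2 groups, comp7_c0_seq1 passed the test only for flooding in infested plants, at -0.94 ± 0.30 (log2 fold change ± SE, adjusted p = 0.0473). That call was lost without each of 15 of the 18 libraries in turn (adjusted p up to 0.192). All adjusted p-values of single contigs are from edgeR's quasi-likelihood test on raw counts with Benjamini-Hochberg adjustment over the 20170 contigs tested, and a contig was called at an adjusted p under 0.05. Fold changes use library sizes scaled by TMM (trimmed mean of M-values), whereas printed levels are relative to all reads, so the ratios differ slightly.

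Like comp7_c0_seq1, the next contig in rank had its highest group mean in uninfested control and its lowest in infested flooding. comp70_c0_seq1, 2179 bases long and second in mean CPM, was at 15247, 13956 and 10471 CPM in uninfested control and 7572, 5505 and 9267 CPM in infested control. It was at 9415, 15848 and 7197 CPM in uninfested flooding and 4978, 2869 and 5009 CPM in infested flooding. The uninfested and infested libraries did not overlap in either water treatment, and herbivory lowered it in flooding plants by 2.49-fold, at -1.31 ± 0.33 (log2 fold change ± SE, adjusted p = 0.0124). That call was lost without replicate 2 of uninfested flooding, or replicate 2 of infested flooding (adjusted p up to 0.0905), and in control plants the change of -0.83 ± 0.32 (adjusted p = 0.11) did not pass. comp13_c0_seq1, 1356 bases long and the third in rank, went the other way, from 5652, 4035 and 4735 CPM in uninfested flooding to 7833, 6792 and 8456 CPM in infested flooding. It was at 4479, 4436 and 5556 CPM in uninfested drought and 9386, 9231 and 5966 CPM in infested drought. All infested libraries stood above the uninfested ones within both of these water treatments. In control plants it was at 6165.5, 6060 and 6499.5 CPM in uninfested and 5660, 8545 and 7543 CPM in infested libraries. These overlapped, and no change was called there. Herbivory averaged over the 3 water treatments raised it, at 0.60 ± 0.12 (log2 fold change ± SE, adjusted p = 0.00171), a call that was kept without any one library (adjusted p at most 0.00528). Within single treatments its calls were less stable: the rise under flooding, at 0.72 ± 0.21 (adjusted p = 0.0312), was lost without replicate 2 or 3 of uninfested flooding, or replicate 1 or 3 of infested flooding (adjusted p up to 0.13), and that under drought, at 0.85 ± 0.21 (adjusted p = 0.0386), was lost without each of 10 of the 18 libraries in turn (adjusted p up to 0.214).

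Among the others of the first 10 were comp36_c0_seq1 (958 bases), comp165_c0_seq1 (2378 bases), comp1_c0_seq1 (6830 bases), comp66_c0_seq1 (2448 bases) and comp47_c0_seq1 (1775 bases). Their highest library was between 2.02 and 2.37 times the lowest. comp165_c0_seq1, comp1_c0_seq1 and comp47_c0_seq1 were called in none of the 7 comparisons of 2 groups. Averaged over the water treatments, however, herbivory was called lower for comp47_c0_seq1 and higher for comp66_c0_seq1. comp47_c0_seq1 was at 5695, 5624 and 5241 CPM in uninfested control and 2920, 3892 and 3668 CPM in infested control, without overlap. Its uninfested and infested drought libraries overlapped. comp36_c0_seq1 was called lower under drought in uninfested plants, at -0.61 ± 0.20 (adjusted p = 0.0482), a call that was lost without each of 16 of the 18 libraries in turn (adjusted p up to 0.205). comp66_c0_seq1 was called higher under herbivory in flooding plants, at 0.67 ± 0.22 (adjusted p = 0.0438), a call that was lost without each of 10 of the 18 libraries in turn (adjusted p up to 0.166). comp23_c0_seq1, 1969 bases long, was at 2417, 2254 and 2609 CPM in uninfested control and 3135, 4244 and 3228 CPM in infested control. Its uninfested and infested libraries did not overlap, and its rise averaged over the water treatments was 0.50 ± 0.08 (log2 fold change ± SE, adjusted p = 0.000263). comp431_c0_seq1, 1919 bases long, was at 4377, 6329 and 3428 CPM in uninfested flooding and 2600.5, 1553 and 2538 CPM in infested flooding. These did not overlap either, and herbivory averaged over the water treatments lowered it by 1.66-fold, at -0.73 ± 0.15 (log2 fold change ± SE, adjusted p = 0.00185). The averaged calls of comp23_c0_seq1 and comp431_c0_seq1 held without any one library.

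The set was far from fixed across groups. Of the 100 contigs, 49 were among the 100 most abundant of all 6 groups taken singly, 17 of 5 groups, 12 of 4, 20 of 3 and 2 of 2. In single libraries, between 66 and 88 of the library's own first 100 were members. For 17 members the highest library was at least 10 times the lowest, for 71 it was between 2 and 10 times, and for 12 it was under 2 times. The SD of log2(CPM + 1) over the 18 libraries had a median of 0.49 among members, 0.43 among the next 100 in rank and 0.24 among the 11825 contigs whose mean reached 10 CPM. The SD within groups was lower, with medians of 0.25, 0.23 and 0.18 in the same order. A ranking by mean favours contigs that are very high in some groups. For instance, 8 members belonged to the first 100 of all 3 infested groups and of no uninfested group, and 7 belonged to those of all 3 uninfested groups and of no infested group. Such members differ in rank between groups by this choice, and their mean rests more on the groups in which they are high. Their changes and the counts that include them are therefore read as a description.

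The steadiest members were comp52_c0_seq1 (1545 bases), comp724_c0_seq1 (1577 bases) and comp30_c0_seq1 (2505 bases). comp52_c0_seq1 had libraries between 786 and 1266 CPM, and both of these extremes were uninfested flooding libraries. comp724_c0_seq1 ran from 1029 to 1628 CPM and comp30_c0_seq1 from 1260.2 to 2008 CPM. comp52_c0_seq1 and comp724_c0_seq1 were called in none of the 7 comparisons of 2 groups, whereas comp30_c0_seq1 was called higher under drought in uninfested plants, at 0.39 ± 0.12 (adjusted p = 0.0422), a call that was lost without each of 8 of the 18 libraries in turn (adjusted p up to 0.153). At the other end, comp521_c0_seq1 (861 bases), comp460_c0_seq1 (646 bases) and comp11494_c0_seq1 (746 bases) had the largest SDs, and all 3 were low in uninfested and high in infested leaves.

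**Figure D1:**
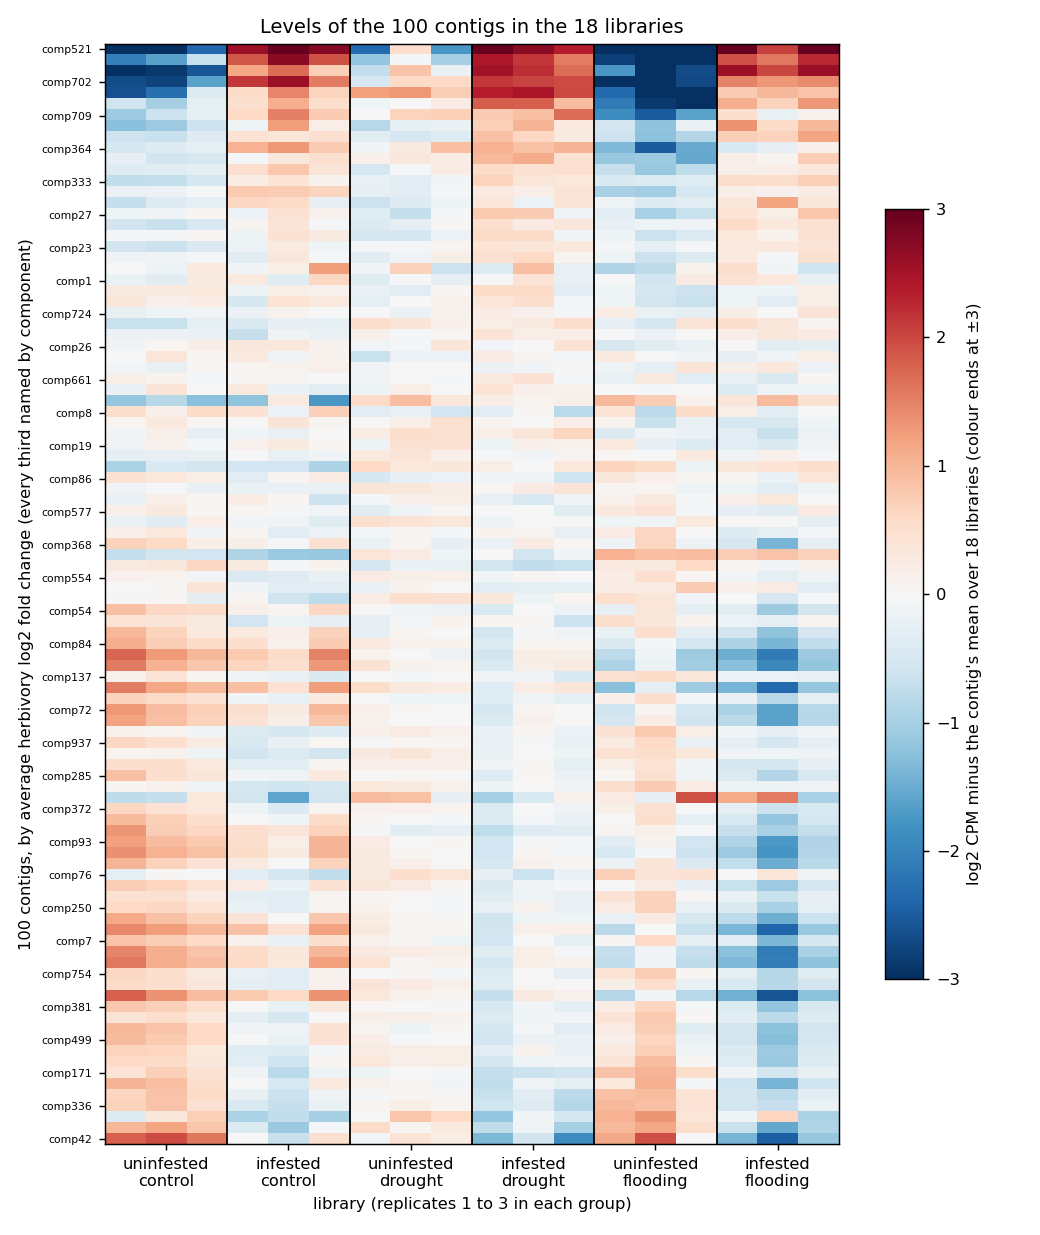
Levels of the 100 contigs (rows, ordered by their average log2 fold change under herbivory) in the 18 libraries (columns, replicates 1 to 3 in each group); colour gives log2 CPM minus the contig's own mean over the 18 libraries, with the scale ending at 3 on either side. The rows at one end are the few contigs that are low in uninfested and high in infested libraries, and most of the other rows change far less.

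Together the 100 contigs took the largest share of reads in uninfested control leaves. Their share there was 24.8%, 23.7% and 21.9% in the 3 libraries, and 19.9%, 20.3% and 23.0% in infested control. It was 18.7%, 19.6% and 18.8% in uninfested drought and 19.7%, 21.9% and 18.8% in infested drought. It was 19.3%, 21.5% and 16.9% in uninfested flooding and 18.3%, 15.3% and 18.7% in infested flooding. The uninfested control libraries lay above all libraries of both uninfested stress groups, and they overlapped those of infested control. The group means (SD, n = 3 each) were 23.4% ± 1.47, 21.1% ± 1.67, 19.1% ± 0.499, 20.1% ± 1.57, 19.2% ± 2.34 and 17.4% ± 1.84 in the same order. Of the 100 contigs, 42 had their highest group mean in uninfested control, and 45 had their lowest in infested flooding. A share of reads in bulk leaf RNA depends on all other transcripts, and fewer cells of a type cannot be told apart from less RNA per cell.

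**Figure D2:**
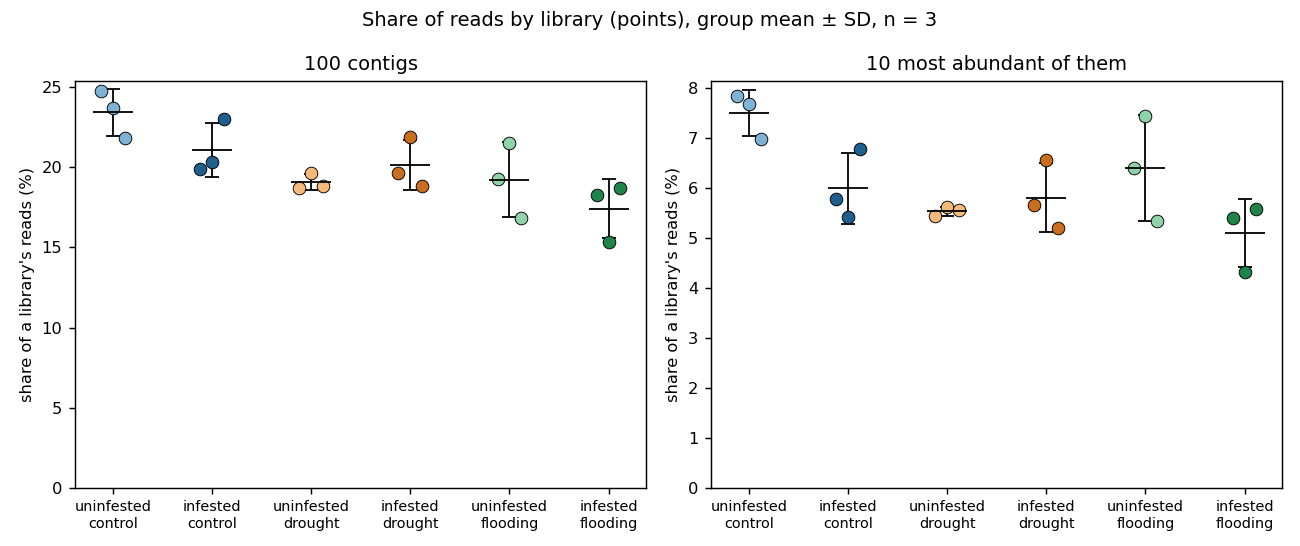
Percentage of each library's reads held by the contigs (vertical axis, from 0) in the 6 groups (horizontal axis), with points for the 3 libraries and bars for the group mean ± SD. For all 100 contigs the uninfested control mean is 23.4% and the infested flooding mean 17.4%.

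The net changes in share hid larger movements in both directions. Between uninfested and infested control plants the share fell by 2.36 percentage points, as the sum of rises of 3.08 points and of falls of -5.45 points. comp7_c0_seq1 with -0.759 points and comp70_c0_seq1 with -0.578 points gave the largest falls, and comp521_c0_seq1 with 0.529 points and comp460_c0_seq1 with 0.512 points the largest rises. In drought plants the rises of 3.48 points exceeded the falls of -2.40 points, and the mean share was 1.08 points higher with caterpillars. The shares of uninfested and infested drought libraries overlapped. In flooding plants the rises of 3.78 points were smaller than the falls of -5.57 points, and the shares of uninfested and infested libraries overlapped there too. Drought and flooding in uninfested plants, which share the 3 uninfested control libraries, lowered the share by different sums: falls of -6.23 points against rises of 1.85 points under drought, and falls of -5.58 points against rises of 1.36 points under flooding.

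Herbivory both raised and lowered members. In control plants 26 of the 100 were called, where 10.5% of all contigs tested were called. Of these, 16 were higher, against 6.61% of all contigs, and 10 lower, against 3.92%. The balance of directions there depended on the method: DESeq2 called 17 higher and 24 lower, and edgeR scaled by column totals called 16 higher and 18 lower. In drought plants 12 were called, against 3.21%, with 11 higher, against 2.87%, and 1 lower, against 0.342%. There DESeq2 called 15 higher and 3 lower, edgeR scaled by column totals 8 higher and 2 lower, and a fit of the drought libraries alone 5 higher and 0 lower. In flooding plants 49 were called, against 15.4%, with 20 higher, against 9.58%, and 29 lower, against 5.79%. Here DESeq2 called 20 higher and 48 lower, edgeR scaled by column totals 20 higher and 44 lower, and a fit of the flooding libraries alone 15 higher and 6 lower. Uninfested and infested libraries did not overlap for 53, 51 and 73 members under control watering, drought and flooding, against 32.3%, 23.6% and 29.5% of all contigs. The 3 comparisons use different libraries. The median log2 fold change of the 100 was -0.32, -0.11 and -0.41 in control, drought and flooding plants, beside -0.021, 0.0030 and 0.0077 over all contigs tested. Changes of at least 2-fold were called for 13 members in control plants (9 higher, 4 lower; 4.05% of all contigs), 6 in drought plants (6 higher; 1.71%) and 23 in flooding plants (15 higher, 8 lower; 6.51%). Of these calls, 15 of 26, 4 of 12 and 21 of 49 held without any one library. In control plants the count was 16 without uninfested control replicate 1 and 15 without replicate 2. In drought plants it was 6 when replicate 1 or 2 of the uninfested group was left out and 4 when replicate 1 of the infested group was. In flooding plants it was 22 when replicate 2 of the uninfested group was left out and 27 when replicate 2 of the infested group was. Infested and uninfested libraries carried separate runs of column numbers in the tables, whose meaning the sources used here do not state, so a difference in handling that followed them cannot be told apart from herbivory. Within each run the 3 libraries of a group were numbered consecutively, so handling that followed this order cannot be told apart from the water treatments either.

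Herbivory was called higher in all 3 water treatments for 10 of the 100, against 2.09% of all contigs, and lower in all 3 for none, against 0.174%. The 10 were comp460_c0_seq1, comp521_c0_seq1, comp333_c0_seq1, comp11494_c0_seq1, comp60_c0_seq1, comp1508_c0_seq1, comp702_c0_seq1, comp280_c0_seq1, comp65_c0_seq1 and comp1119_c0_seq1. comp521_c0_seq1 had the largest rise. It was at 51.5, 62.5 and 124 CPM in uninfested control and 3756, 8064 and 4284 CPM in infested control. It was at 125, 907 and 191 CPM in uninfested drought and 5679, 4125 and 3269 CPM in infested drought. It was at 50.2, 27.8 and 31.8 CPM in uninfested flooding and 5605, 2634 and 5083 CPM in infested flooding. No infested library overlapped an uninfested one, and uninfested drought replicate 2 stood well above the other uninfested libraries. The rise was 6.10 ± 0.74 (log2 fold change ± SE, adjusted p = 0.000162) in control plants, 3.50 ± 0.65 (log2 fold change ± SE, adjusted p = 0.00861) in drought plants and 6.97 ± 0.77 (log2 fold change ± SE, adjusted p = 3.68e-05) in flooding plants, and without any one library these 3 calls held. Without uninfested drought replicate 2, the log2 fold change in drought plants was 4.87. When only the libraries of drought plants were fitted, its adjusted p there was 0.136.

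comp460_c0_seq1, comp11494_c0_seq1 and comp702_c0_seq1 had the same layout at other levels. comp460_c0_seq1 was at 292, 393 and 759.7 CPM in uninfested control and 4383, 7886 and 4529 CPM in infested control. It was at 175, 38.3 and 74.5 CPM in uninfested flooding and 4611, 3639 and 5789 CPM in infested flooding. The infested libraries of the 2 treatments overlapped, whereas the uninfested flooding libraries were all below the uninfested control ones. Its rise was 3.56 ± 0.53 (adjusted p = 0.000602) in control, 2.80 ± 0.51 (adjusted p = 0.00703) in drought and 5.66 ± 0.58 (adjusted p = 1.94e-05) in flooding plants. Without uninfested flooding replicate 1, the log2 fold change in flooding plants was 6.43.

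comp11494_c0_seq1 was at 54.5, 95.3 and 119.7 CPM in uninfested control and 1589, 2258 and 1167 CPM in infested control. It was at 421, 1282 and 622 CPM in uninfested drought and 4076, 3315 and 2260.1 CPM in infested drought. Both pairs of groups were apart, and the uninfested drought libraries already stood above the uninfested control ones. Its rise was 4.22 ± 0.50 (adjusted p = 0.000127) in control, 2.14 ± 0.46 (adjusted p = 0.0178) in drought and 4.93 ± 0.52 (adjusted p = 2.17e-05) in flooding plants. The call in drought plants was lost without replicate 1 or 3 of uninfested drought, or replicate 1 of infested drought (adjusted p up to 0.0996).

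comp702_c0_seq1, 1976 bases long, was at 74.6, 69.1 and 158 CPM in uninfested control and 2066, 2818 and 1382 CPM in infested control. It was at 337, 705 and 715 CPM in uninfested drought and 2086, 1935 and 1852 CPM in infested drought. The uninfested drought libraries lay above the uninfested control ones and below all infested ones given here. Its rise was 4.39 ± 0.41 (adjusted p = 1.81e-05) in control, 1.83 ± 0.37 (adjusted p = 0.0117) in drought and 4.73 ± 0.42 (adjusted p = 4.61e-06) in flooding plants, and the call in drought plants was lost without replicate 1 of infested drought (adjusted p up to 0.0599).

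The remaining 6 of the 10 rose by less than these 4 within each water treatment. comp60_c0_seq1, 2751 bases long, had small spread, with 1225, 1246 and 1381 CPM in uninfested control and 2451, 2397 and 2239 CPM in infested control. The groups were clearly apart, and the rise was 0.88 ± 0.13 (adjusted p = 0.000434) in control, 0.59 ± 0.13 (adjusted p = 0.0163) in drought and 1.05 ± 0.13 (adjusted p = 5.56e-05) in flooding plants. The call in drought plants was lost without replicate 1 or 2 of uninfested drought, or replicate 1 of infested drought (adjusted p up to 0.104). comp333_c0_seq1 rose by 0.91 ± 0.14, 0.75 ± 0.14 and 1.04 ± 0.14 (log2 fold change ± SE) in control, drought and flooding plants. comp1508_c0_seq1 rose by 0.99 ± 0.18, 1.10 ± 0.18 and 1.83 ± 0.19 in the same order. comp280_c0_seq1 rose by 0.92 ± 0.16, 0.67 ± 0.16 and 1.12 ± 0.16, and comp65_c0_seq1 by 0.71 ± 0.14, 0.66 ± 0.14 and 0.65 ± 0.14. The largest adjusted p among these 12 values was 0.0311, for comp280_c0_seq1 in drought plants. In drought plants the call of comp333_c0_seq1 was lost without replicate 2 of uninfested drought, or replicate 1 of infested drought (adjusted p up to 0.0593), that of comp280_c0_seq1 was lost without each of 5 of the 18 libraries in turn (adjusted p up to 0.159), and that of comp65_c0_seq1 was lost without replicate 1 or 2 of uninfested drought, or replicate 1 of infested drought (adjusted p up to 0.11). comp1119_c0_seq1, the last in rank, was at 146, 86.1 and 78.7 CPM in uninfested flooding and 1340.4, 1008 and 1548 CPM in infested flooding. It rose by 3.69 ± 0.31 (adjusted p = 3.05e-06) there, and by 1.34 ± 0.29 (adjusted p = 0.00688) in control and 1.61 ± 0.29 (adjusted p = 0.0058) in drought plants. These 3 calls held without any one library.

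**Figure D3:**
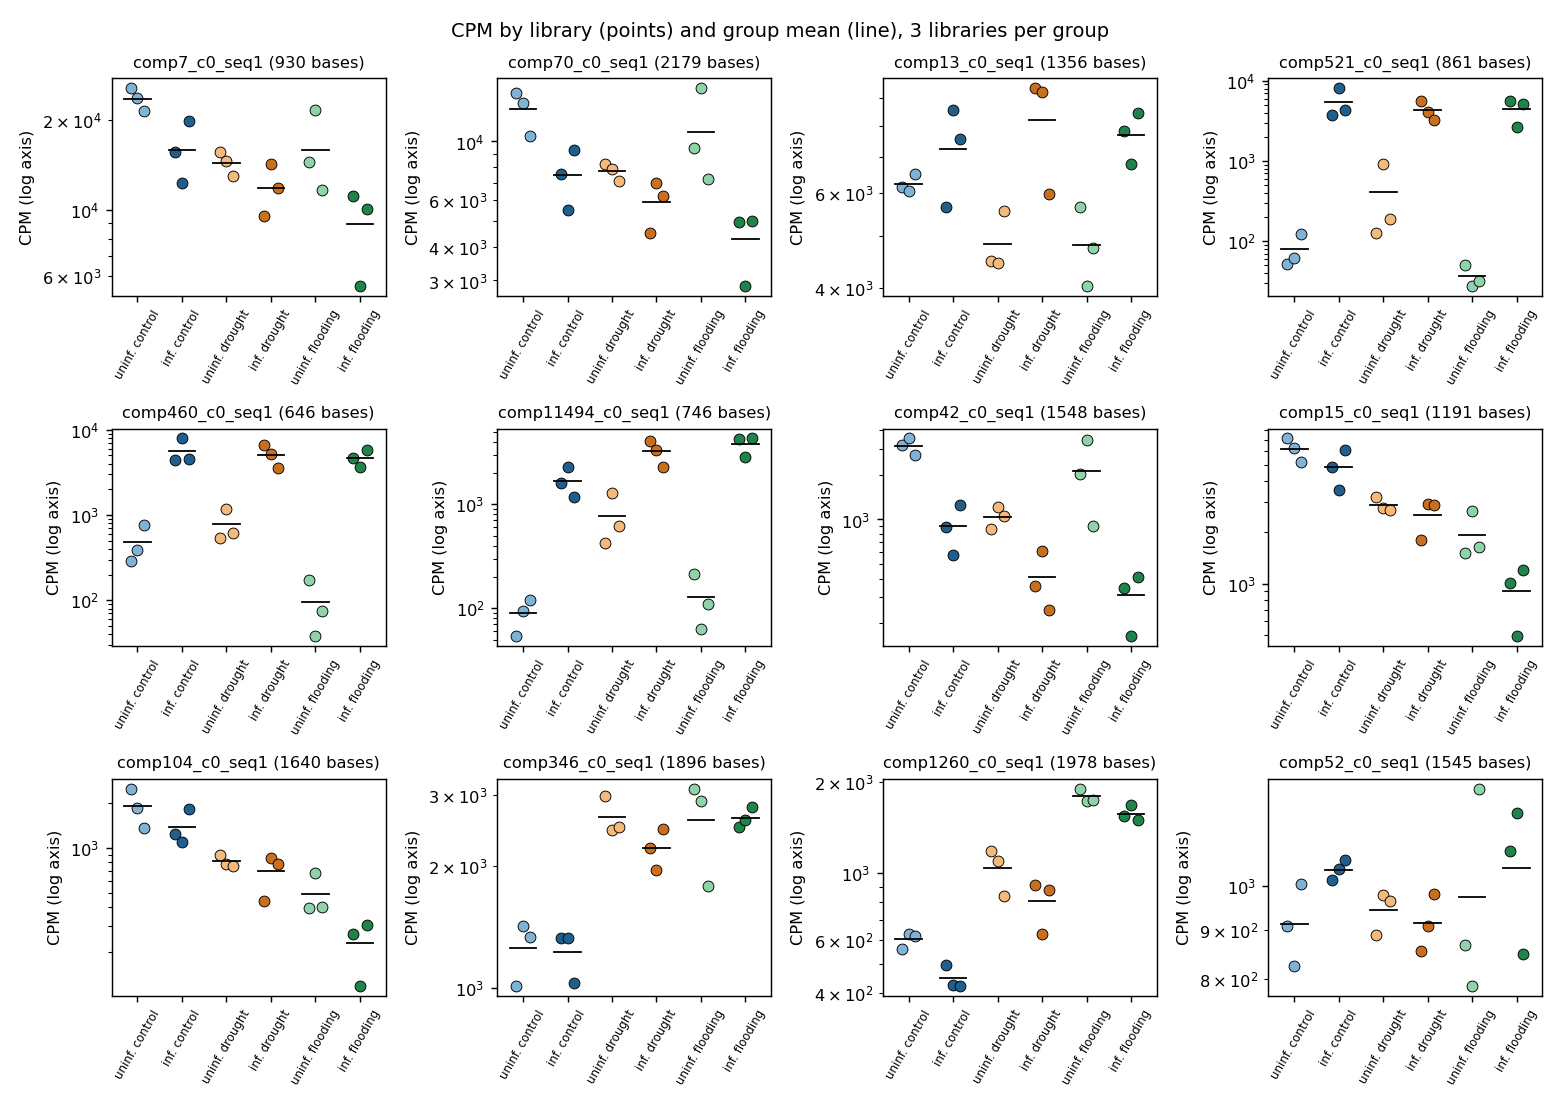
CPM (log axis) of 12 of the 100 contigs in the 18 libraries, with points for libraries and a line for the mean of the 3 libraries of a group; uninf. and inf. stand for uninfested and infested. comp521_c0_seq1, comp460_c0_seq1 and comp11494_c0_seq1 are low in uninfested and high in infested groups, and comp15_c0_seq1 and comp104_c0_seq1 are lowest in infested flooding. The group means of comp52_c0_seq1 lie between 912 and 1045 CPM, with its infested control libraries all above the uninfested control ones.

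Under herbivory 10 members fell in control plants and 29 fell under flooding. The median log2 fold change of those lowered was -0.83 and -0.90, and of those raised 1.39 and 1.61. comp42_c0_seq1, 1548 bases long, was at 3151, 3509 and 2706 CPM in uninfested control and 896, 575 and 1259 CPM in infested control. It was at 2009, 3442 and 909 CPM in uninfested flooding and 348, 165 and 412 CPM in infested flooding. Infested libraries lay below uninfested ones in both treatments, and uninfested flooding replicate 3 was far below the other 2 of its group. The change was -1.77 ± 0.48 (log2 fold change ± SE, adjusted p = 0.0302) in control and -2.77 ± 0.50 (log2 fold change ± SE, adjusted p = 0.00184) in flooding plants. The call in control plants was lost without replicate 1 or 2 of uninfested control, or replicate 1 or 2 of infested control (adjusted p up to 0.117), and without uninfested flooding replicate 2 the log2 value in flooding plants was -2.18. comp3399_c0_seq1, 2642 bases long, was at 1545, 1758 and 1379 CPM in uninfested control and 584, 362 and 748 CPM in infested control. It fell in control plants, at -1.46 ± 0.31 (adjusted p = 0.00684), and in flooding plants, at -1.87 ± 0.31 (adjusted p = 0.000831), and both calls held without any one library. comp336_c0_seq1, 762 bases long, was at 1754, 1652 and 1209 CPM in uninfested flooding and 618, 555 and 784 CPM in infested flooding. It fell at -1.11 ± 0.21 (adjusted p = 0.00282) in control and -1.20 ± 0.21 (adjusted p = 0.00102) in flooding plants, and these calls held as well. In drought plants, comp42_c0_seq1, comp3399_c0_seq1 and comp336_c0_seq1 had values of -1.27 ± 0.48, -0.81 ± 0.30 and -0.64 ± 0.21 that did not pass.

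The only member called lower by herbivory in drought plants was comp76_c0_seq1, 1404 bases long. It was at 3212, 3764 and 3429.6 CPM in uninfested drought and 2240.2, 1698 and 2318 CPM in infested drought. The groups did not overlap, and the change was -0.66 ± 0.17 (log2 fold change ± SE, adjusted p = 0.0425). That call was lost without each of 10 of the 18 libraries in turn (adjusted p up to 0.191).

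Averaged over the 3 water treatments, herbivory was called for 64 of the 100, against 29.4% of all contigs, with 20 higher, against 16.0%, and 44 lower, against 13.4%. The 20 had log2 fold changes from 0.44 to 5.52 with a median of 1.12, and the 44 from -1.93 to -0.29 with a median of -0.49. At least 2-fold changes were called for 14 members, 11 higher and 3 lower, against 5.08% of all contigs. Of the 64 calls, 54 held without any one library. The call of comp7_c0_seq1, at -0.52 ± 0.17 (adjusted p = 0.0344), was among the others, since it was lost without each of 10 of the 18 libraries in turn (adjusted p up to 0.0787). These classes were chosen on the same contrast, so their shares of reads describe them and nothing more. The 20 raised contigs held 2.53% and 5.26% of the reads in uninfested and infested control leaves, 3.12% and 6.11% under drought, and 2.05% and 5.45% under flooding. The 44 lowered contigs held 13.3% and 8.62%, 9.07% and 7.17%, and 10.6% and 5.86% in the same order. The 36 without a call ranged between 6.12% and 7.64%.

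None of the 100 passed the test for a difference in the herbivory response between water treatments. The edgeR test called 0 members for drought minus control, where 0.00% of all contigs were called, 0 for flooding minus control, also against 0.00%, and 0 for flooding minus drought, against 0.0198%. At an unadjusted p under 0.05 there were 8, 7 and 24 members, beside 1301, 755 and 1956 of all contigs. DESeq2 called 1, 1 and 5 members. Without uninfested control replicate 3, uninfested drought replicate 1 or uninfested flooding replicate 1, edgeR called 1 member for flooding minus drought. The smallest adjusted p among the members was for comp702_c0_seq1, whose log2 response was larger under flooding than under drought by 2.90 ± 0.51 (adjusted p = 0.0606). It was followed by comp1119_c0_seq1, by 2.08 ± 0.40 (adjusted p = 0.0902). For comp702_c0_seq1 the response was also smaller under drought than under control watering, at -2.56 ± 0.51 (adjusted p = 0.425), and for comp1119_c0_seq1 it was larger under flooding than under control, at 2.34 ± 0.40 (adjusted p = 0.169). Missing the threshold does not show that the responses were alike.

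Drought changed 38 of the 100 in uninfested plants, against 14.4% of all contigs, with 10 higher, against 5.75%, and 28 lower, against 8.68%. Control and drought libraries did not overlap for 75 members, against 38.7%. The median log2 fold change was -0.41 among the members and -0.0023 over all contigs. In infested plants, which use other libraries, 5 members were called, against 4.76%, with 2 higher, against 1.87%, and 3 lower, against 2.89%, and the medians were -0.14 and 0.0094. In those plants DESeq2 called 6 higher and 10 lower, and edgeR scaled by column totals called 4 higher and 2 lower. There the groups did not overlap for 32 members, against 28.2%. At least 2-fold changes were called for 17 members in uninfested plants (5 higher, 12 lower), against 6.09%, and for 1 in infested plants (lower), against 2.05%. Only 7 of the 38 calls and 2 of the 5 held without any one library. The count in uninfested plants was 10 and 16 without uninfested control replicates 1 and 2, and 17, 12 and 18 without uninfested drought replicates 1, 2 and 3. In infested plants it was 3 when replicate 1 or 3 of control or replicate 2 or 3 of drought was left out, 2 when replicate 1 of drought was, and 8 when replicate 2 of flooding was. Scaling by column totals in place of TMM moved the median of all contigs to 0.14 for drought in uninfested plants and to 0.13 for flooding in both uninfested and infested plants. No called member changed sign under that or any other setting tried.

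The largest rises under drought in uninfested plants were those of comp11494_c0_seq1, comp10_c0_seq1 and comp702_c0_seq1. comp10_c0_seq1, 689 bases long, was at 109.6, 142 and 514 CPM in uninfested control and 1592, 1662 and 1133 CPM in uninfested drought. The groups did not overlap, and uninfested control replicate 3 was the highest of its group by a wide margin. The rise was 2.41 ± 0.53 (log2 fold change ± SE, adjusted p = 0.00871), and without that replicate the log2 value was 3.37. When only the libraries of uninfested control and drought plants were fitted, its adjusted p was 0.0632. With the levels already given, comp11494_c0_seq1 rose at 2.97 ± 0.48 (adjusted p = 0.00128) and comp702_c0_seq1 at 2.41 ± 0.37 (adjusted p = 0.000991), and both calls held without any one library. The same uninfested drought libraries enter the herbivory comparison in drought plants, so the 2 sets of values for these contigs are not independent.

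The largest falls under drought in uninfested plants were those of comp42_c0_seq1, comp105_c0_seq1 and comp104_c0_seq1. comp105_c0_seq1, 743 bases long, was at 2601, 1889 and 1544 CPM in uninfested control and 837, 792 and 695 CPM in uninfested drought. The groups were apart, and the change was -1.53 ± 0.35 (log2 fold change ± SE, adjusted p = 0.00918), a call that was kept without any one library (adjusted p at most 0.0489). comp42_c0_seq1 was at 859.7, 1214 and 1061 CPM in uninfested drought, below all its uninfested control libraries, and fell at -1.73 ± 0.48 (adjusted p = 0.0272). comp104_c0_seq1, 1640 bases long, was at 2488, 1836 and 1363 CPM in uninfested control and 897, 784 and 759 CPM in uninfested drought, and fell at -1.38 ± 0.37 (adjusted p = 0.0232). The call of comp42_c0_seq1 was lost without each of 5 of the 18 libraries in turn (adjusted p up to 0.102), and that of comp104_c0_seq1 was lost without each of 5 of the 18 libraries in turn (adjusted p up to 0.11).

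In both uninfested and infested plants, drought was called higher for 2 members, against 1.10% of all contigs, and lower for 2, against 2.15%. The 2 raised ones were comp346_c0_seq1 and comp1260_c0_seq1. comp346_c0_seq1, 1896 bases long, was at 1014, 1427 and 1337 CPM in uninfested control and 2969, 2451 and 2491 CPM in uninfested drought. It was at 1334, 1329 and 1029.99 CPM in infested control and 2215, 1954 and 2469.5 CPM in infested drought. Drought libraries were above control libraries in both sets, by 0.93 ± 0.20 (adjusted p = 0.00683) and 0.78 ± 0.20 (adjusted p = 0.0365). The second of these calls was lost without each of 6 of the 18 libraries in turn (adjusted p up to 0.144). comp1260_c0_seq1, 1978 bases long, rose by 0.65 ± 0.15 (adjusted p = 0.011) in uninfested and by 0.78 ± 0.15 (adjusted p = 0.0107) in infested plants. The first of its calls was lost without replicate 1 of uninfested drought (adjusted p up to 0.062) and the second was lost without replicate 1 of infested drought (adjusted p up to 0.0526).

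The 2 members lowered by drought in both sets were comp1297_c0_seq1 and comp34_c0_seq1. comp34_c0_seq1, 827 bases long, was at 1173, 1237 and 1515 CPM in uninfested control and 694, 859 and 839 CPM in uninfested drought. It was at 1171, 946 and 1055 CPM in infested control and 672, 583 and 621 CPM in infested drought. Drought libraries were below control libraries in both sets, by -0.85 ± 0.13 (adjusted p = 0.000858) and -0.83 ± 0.13 (adjusted p = 0.00301). Under flooding the same contig was at 1202, 1187 and 1490.1 CPM in uninfested plants and had a log2 fold change of -0.15 ± 0.13 (adjusted p = 0.477), which did not pass. comp1297_c0_seq1, 2648 bases long, fell at -1.29 ± 0.20 (adjusted p = 0.000991) and -1.08 ± 0.20 (adjusted p = 0.00787), and its 2 calls, like those of comp34_c0_seq1, held without any one library. The third member lowered by drought in infested plants was comp60_c0_seq1, at -0.51 ± 0.13 (adjusted p = 0.0325), a call that was lost without each of 6 of the 18 libraries in turn (adjusted p up to 0.104).

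Flooding lowered more members than it raised. In uninfested plants 32 were called, against 15.9% of all contigs, with 3 higher, against 5.80%, and 29 lower, against 10.1%. In infested plants 34 were called, against 15.4%, with 3 higher, against 6.70%, and 31 lower, against 8.68%. With column totals in place of TMM, 9 were higher and 27 lower in uninfested plants and 8 higher and 28 lower in infested plants. DESeq2 called 5 higher and 34 lower in uninfested and 6 higher and 35 lower in infested plants, where a fit of only the groups compared called 2 higher and 20 lower. Control and flooding libraries did not overlap for 42 members in uninfested and 50 in infested plants, against 37.0% and 35.6%. These 2 comparisons share no library, whereas flooding and drought within uninfested or infested plants share the control libraries. The median log2 fold changes of the 100 were -0.38 in uninfested and -0.34 in infested plants, beside -0.0030 and 0.024 over all contigs. At least 2-fold changes were called for 21 members in each, with 19 lower in uninfested and 20 lower in infested plants, against 6.37% and 5.71% of all contigs in either direction. In each comparison, 21 calls held without any one library, 2 of them higher and 19 lower. In infested plants the count was 22 without infested control replicate 3 and 21 without infested flooding replicate 2.

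**Figure D4:**
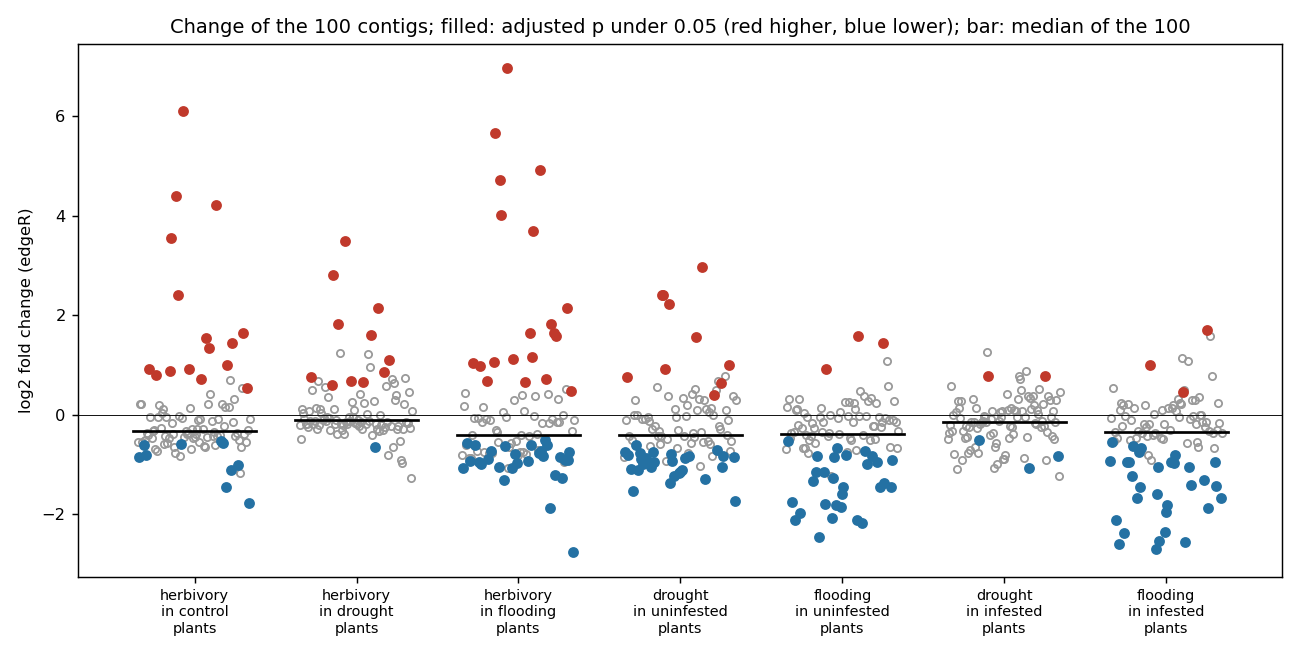
Log2 fold change (edgeR, vertical axis) of the 100 contigs in the 7 comparisons of 2 groups (horizontal axis); filled points passed at an adjusted p under 0.05 (red higher, blue lower) and the bar is the median of the 100. Called members reach 6.97 for herbivory in flooding plants and -2.77 in the same comparison, and under flooding most called members are lower.

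In both uninfested and infested plants, 21 of the 100 were called lower under flooding, against 6.26% of all contigs. They were comp24_c0_seq1, comp15_c0_seq1, comp72_c0_seq1, comp88_c0_seq1, comp54_c0_seq1, comp60_c0_seq1, comp26_c0_seq1, comp128_c0_seq1, comp75_c0_seq1, comp93_c0_seq1, comp101_c0_seq1, comp1297_c0_seq1, comp364_c0_seq1, comp87_c0_seq1, comp84_c0_seq1, comp46_c0_seq1, comp74_c0_seq1, comp105_c0_seq1, comp709_c0_seq1, comp82_c0_seq1 and comp104_c0_seq1. Not all of these 21 kept both calls without any one library, since only 19 lower calls held in each comparison. The most abundant of the 21 by CPM with large changes was comp15_c0_seq1, 1191 bases long. It was at 7128, 6237 and 5197 CPM in uninfested control and 1504, 2662 and 1646 CPM in uninfested flooding. It was at 4859.6, 3534 and 6068 CPM in infested control and 1011, 493 and 1195 CPM in infested flooding. Flooding libraries were below control libraries in both sets without overlap, at -1.81 ± 0.34 (log2 fold change ± SE, adjusted p = 0.00224) and -2.53 ± 0.35 (log2 fold change ± SE, adjusted p = 0.0004). Its drought libraries lay in between, with 3238, 2769 and 2713 CPM in uninfested plants.

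comp82_c0_seq1, comp104_c0_seq1 and comp105_c0_seq1 had the largest falls of the 21. comp82_c0_seq1, 1035 bases long, was at 2182, 1678 and 1441 CPM in uninfested control and 315, 610.3 and 356 CPM in uninfested flooding. It was at 1393, 1019.8 and 1782 CPM in infested control and 285, 149 and 334 CPM in infested flooding. The groups were apart in both sets, and it fell by 4.53-fold, at -2.18 ± 0.35 (adjusted p = 0.000956), and by 5.89-fold, at -2.56 ± 0.35 (adjusted p = 0.000461). comp104_c0_seq1 was at 398, 678 and 399.95 CPM in uninfested flooding and 266, 119 and 304 CPM in infested flooding, against 1236, 1089 and 1828 CPM in infested control. It fell at -2.08 ± 0.38 (adjusted p = 0.00227) in uninfested and -2.70 ± 0.39 (adjusted p = 0.000581) in infested plants. comp105_c0_seq1 was at 455, 712 and 370.3 CPM in uninfested flooding and 283, 182 and 367 CPM in infested flooding, against 1339.97, 1148 and 2173 CPM in infested control. It fell at -2.11 ± 0.35 (adjusted p = 0.00128) and -2.60 ± 0.36 (adjusted p = 0.000488), and the calls of comp15_c0_seq1, comp82_c0_seq1, comp104_c0_seq1 and comp105_c0_seq1 under flooding held without any one library. As a description, the 21 contigs held 5.04% of the reads in uninfested control, 3.04% in uninfested drought and 2.17% in uninfested flooding. In infested leaves they held 4.27%, 2.83% and 1.54% in the same order.

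In uninfested flooding plants, comp460_c0_seq1 and comp1119_c0_seq1 were also among the 3 largest falls, although they rose with herbivory. comp460_c0_seq1 changed at -2.46 ± 0.51 (adjusted p = 0.00484) and comp1119_c0_seq1 at -2.12 ± 0.29 (adjusted p = 0.000306) in uninfested plants. Without uninfested flooding replicate 1 the value of comp460_c0_seq1 was -3.23. In infested plants their values were -0.36 ± 0.48 (adjusted p = 0.66) and 0.22 ± 0.28 (adjusted p = 0.634), which did not pass. The comparison of uninfested flooding with uninfested control uses the same uninfested flooding libraries as the herbivory comparison in flooding plants, so a low level in those libraries enters both values.

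Flooding raised 2 members in both uninfested and infested plants, against 3.29% of all contigs, and these were again comp1260_c0_seq1 and comp346_c0_seq1. comp1260_c0_seq1 was at 558, 629 and 619 CPM in uninfested control and 1903, 1727 and 1744 CPM in uninfested flooding. It was at 494, 426 and 422 CPM in infested control and 1541, 1676 and 1493 CPM in infested flooding. Flooding libraries were all above the control libraries with small spread, by 1.44 ± 0.16 (log2 fold change ± SE, adjusted p = 5.15e-05) and 1.71 ± 0.16 (log2 fold change ± SE, adjusted p = 1.68e-05). comp346_c0_seq1 was at 3104, 2901 and 1783 CPM in uninfested flooding and 2495, 2598 and 2795 CPM in infested flooding, above its control libraries, by 0.92 ± 0.20 (adjusted p = 0.00626) and 0.997 ± 0.20 (adjusted p = 0.00454). These 4 calls held without any one library. When only the libraries of the groups compared were fitted, the adjusted p of comp346_c0_seq1 in uninfested plants was 0.0533. Because the drought and flooding comparisons share control libraries, a low level in those libraries would enter both.

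comp1715_c0_seq1, 1096 bases long, had the largest rise under flooding in uninfested plants. It was at 447, 565 and 419 CPM in uninfested control and 1972, 1657 and 1094 CPM in uninfested flooding. The groups did not overlap, at 1.59 ± 0.39 (log2 fold change ± SE, adjusted p = 0.0119), a call that was lost without replicate 3 of uninfested control (adjusted p up to 0.0519). In infested control it was at 430.2, 1207 and 299 CPM, with replicate 2 far above the others, and in infested flooding at 1282, 1921 and 1379.7 CPM, a difference of 1.15 ± 0.38 (adjusted p = 0.0536) that did not pass. comp631_c0_seq1, 2703 bases long, was called higher under flooding in infested plants, at 0.47 ± 0.15 (adjusted p = 0.0445), a call that was lost without each of 15 of the 18 libraries in turn (adjusted p up to 0.17).

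Counting the 7 comparisons of 2 groups together, 79 of the 100 were called in at least 1, against 38.0% of all contigs, and 21 in none, against 62.0%. There were 23 members called in 1 comparison, 17 in 2, 22 in 3, 13 in 4, 3 in 5 and 1 in 6. The members' counts and lengths were higher than those of the contigs in that background, and the part of this in the difference was not tested. The smallest called change among members was 0.39 on the log2 scale (comp30_c0_seq1 under drought in uninfested plants).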

How the data were processed

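Leaf RNA was extracted with a plant RNA kit and DNase-treated before Illumina libraries were made, per the labels' protocols. The submitters' processing notes list the tools Bowtie (version 0.12.7) and DESeq. How contigs were assembled, counted and annotated, and whether strand was used, is not given in the sources used here. The authors deposited a table of raw read counts per contig, which was used for all main results, and a table of a normalized signal for 22410 contigs, also made by the authors, which was used as an alternative. On its values the deposited signal was proportional to the count per kilobase within each library (largest relative departure 1.7e-09), and it held all 100 members. Columns were tied to samples by the column numbers in the labels.

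CPM was the count divided by the column total, times 1000000. Contigs were filtered with filterByExpr (minimum count 10, minimum total 15), which kept 20170. One robust quasi-likelihood model with a mean per group was fitted to all 18 libraries in edgeR 4.0.16 (R 4.3.3, TMM scaling, 12 residual degrees of freedom, common biological coefficient of variation 18.6%). A contig was called at a Benjamini-Hochberg adjusted p under 0.05 over all contigs tested. SEs were obtained from each log2 fold change and the square root of its F statistic. The fit was tested on simulated data. Alternatives were DESeq2 1.42.0, limma 3.58.1 on log2 of the deposited signal plus a pseudocount of 1 or 10, other scalings, filters and rankings, a replicate block, fits of only the groups compared, and leaving out each library.

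The members, and the choice to describe them, were made with earlier results of these data known. The contigs named are the first 10 by mean CPM, in each comparison of 2 groups the 3 called members that rose most and the 3 that fell most, the 3 with the smallest and the 3 with the largest SD of log2 CPM, and the 3 on either side of the rank limit. For each difference between responses, called members were to be named, and there were none. The other contigs named (those called in all 3 herbivory comparisons or in both comparisons of a water treatment, comp15_c0_seq1 for its share of reads and members with the smallest p for a difference between responses) were chosen after their values were seen. No contig sequence was printed.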

Additional observations from a re-analysis of the deposited data

Results flagged for a closer look

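comp30_c0_seq1, among the steadiest of the 100 contigs, stood out for the order of its libraries under 2 water treatments. Its infested libraries lay above the uninfested ones in control plants and below them in drought plants, with no overlap in either. Such a lack of overlap, in either direction, was seen for 32.3% of all contigs in control plants and 23.6% in drought plants. In control plants it was at 1260.2, 1289.8 and 1318 CPM in uninfested and 1560.5, 1322 and 1425 CPM in infested libraries, a log2 fold change of 0.16 ± 0.12 (adjusted p = 0.442). In drought plants it was at 1884, 2008 and 1717 CPM in uninfested and 1467, 1446 and 1626 CPM in infested libraries, a log2 fold change of -0.23 ± 0.12 (adjusted p = 0.434). Neither change passed edgeR's quasi-likelihood test. The difference between the 2 responses, drought minus control, was -0.39 ± 0.17 on the log2 scale, with an unadjusted p of 0.0412 and an adjusted p of 0.757, and did not pass either.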

How the results depend on the processing

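The share of reads held by the 100 most abundant contigs was 20.1% and lay between 18.6% (ranked per kilobase) and 20.3% under the other rankings and without any one library. With DESeq2, 41 members were called for herbivory in control plants (17 higher, 24 lower) in place of 26, 16 for drought in infested plants in place of 5, and 1, 1 and 5 for the 3 differences between responses in place of 0. With only the libraries of the groups compared in the fit, 5 were called for herbivory in drought plants, 21 for herbivory in flooding plants (15 higher, 6 lower) and 22 for flooding in infested plants, in place of 12, 49 and 34. Such fits hold fewer libraries and residual degrees of freedom; the cause of the differences under DESeq2 was not tested. Leaving out 1 library in turn, counts ranged from 15 to 34, 4 to 13 and 22 to 65 for herbivory in control, drought and flooding plants and from 54 to 72 averaged over them. They ranged from 10 to 45 and 2 to 8 for drought in uninfested and infested plants, from 24 to 34 and 21 to 37 for flooding, and from 0 to 1 for flooding minus drought. For the other 2 differences they stayed at 0. The other counts under the settings tried moved by at most 1.5 times. No call of a member changed sign. For the members named for the largest rises and falls of a comparison, a call was lost 58 times without 1 library and 14 times under another setting; losses of calls of other members are beside their values above and are not in these counts. With only the groups compared, calls lost were those of comp11494_c0_seq1 (adjusted p 0.091) and comp76_c0_seq1 (0.0813) for herbivory in drought plants, comp70_c0_seq1 for herbivory in flooding plants (0.0985), comp60_c0_seq1 for drought (0.0963) and comp631_c0_seq1 for flooding (0.181) in infested plants, besides those given above. With 3 libraries a group, members whose calls were lost this way rest on few samples.

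No consistent pairing of libraries by replicate number was seen. Same-numbered libraries of different groups had correlations of their deviations between -0.50 and 0.53 with a median of 0.0017. Of the 45 pairs, 11 were over 0.1, and in 14 the library correlated best with its own number. Infested drought gave 0.23, 0.30 and 0.24 with uninfested flooding, but -0.39, -0.30 and -0.34 with infested flooding. With 3 libraries a group, these correlations cannot exclude that some replicates shared a block. With the replicate number as a block, 23, 10 and 39 members were called for herbivory in control, drought and flooding plants, 31 and 5 for drought and 28 and 32 for flooding in uninfested and infested plants, and 59 for averaged herbivory.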
